A study of Mus musculus with 8 samples.

Results

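These results concern 1000 chromatin regions that were more accessible when macrophages had received fenoterol before LPS than when they had received LPS alone. The regions are ATAC-seq peaks, out of 74207 in the deposited table, of which 66772 had a mean level above 9.71 RPKM (reads per kilobase of peak, relative to all reads in peaks) and are called tested peaks below. Members were chosen by measured values: log2 of (RPKM + 4) had to be higher by at least 0.585, which is 1.5-fold, with fenoterol + LPS than with LPS in mouse 1 and again in mouse 2. That difference therefore describes the set and is not tested over it. The cells were macrophages (BMDM) grown from the bone marrow of C57Bl/6 mice of genotype WT, in CMG medium with fetal serum, and the ages of the mice are not given in the labels. Each of 2 mice gave 4 libraries: unstimulated cells, cells given 1 µM fenoterol for 15 min, cells given 100 ng/mL LPS for 1 h, and cells given fenoterol for 15 min and then LPS for 1 h. All groups share the strain, the genotype and the culture, and the labels name no solvent control. Markers of the cell type were not analysed here. Cells given both agents were harvested 1 h later after fenoterol than cells given fenoterol alone.

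Fenoterol activates the β2 adrenergic receptor, which couples to the stimulatory G protein and adenylyl cyclase, raises cyclic AMP and activates protein kinase A and the transcription factor CREB. LPS, a cell wall component of Gram-negative bacteria, acts through Toll-like receptor 4 and activates NF-kB and the MAP kinases, whose targets include AP-1 factors. In macrophages both pathways act on enhancers, where binding of transcription factors opens the chromatin so that the Tn5 transposase of the ATAC-seq assay can cut it. The title of the series concerns adrenergic signalling and early transcription of Il1b, and the 2 libraries with both agents address how fenoterol changes the chromatin response to LPS. Coordinates below are those of the file (build mm9, per the submitters' processing notes). The gene and sequence tables used here are of another build, so no gene name or sequence is attached to a region.

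The shallowest library, unstimulated cells of mouse 1, had 1426873 reads in peaks, and the remaining 7 had 3164446 to 4040292. The libraries that chose the members held 3521741 (LPS, mouse 1), 3637389 (LPS, mouse 2), 3918319 (fenoterol + LPS, mouse 1) and 3535300 reads (fenoterol + LPS, mouse 2). The median member held 12 reads in each LPS library, with an exact 95% Poisson interval of 6.20 to 20.96. It held 29 reads in the fenoterol + LPS library of mouse 1 (19.4 to 41.6) and 25 in that of mouse 2 (16.2 to 36.9). In the shallow unstimulated library of mouse 1 the median member held 4 reads (1.09 to 10.2), and 140 members (14%, against 3.19% of tested peaks) stood at 1 read. Column totals just above their nominal sum show that some of these entries are peaks without reads that were set to 1. These intervals cover counting error only.

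Of the 66772 tested peaks, 1.5% met the rule (1000 peaks), and 0.403% met its mirror image (269 peaks lower by at least 1.5-fold in both mice). The split of 1000 against 269 depended on the scaling, with 1003 against 673 after quantile normalization and 752 against 423 after cyclic loess. Another 276 peaks passed the 1.5-fold limit in opposite directions, 157 of them up in mouse 1 and 119 up in mouse 2. In mouse 1 alone 4663 peaks were up and 2419 down, and in mouse 2 alone 3713 were up and 2719 down. Of those up in mouse 1, 71.4% were also higher in mouse 2 by any amount, and of those up in mouse 2, 73.1% were higher in mouse 1. Among the 37913 tested peaks with at least 20 reads in each of the 4 libraries with LPS, a minimum chosen after the values were seen, 181 were members, 15 met the mirrored rule and 2 went opposite ways.

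**Figure D1:**
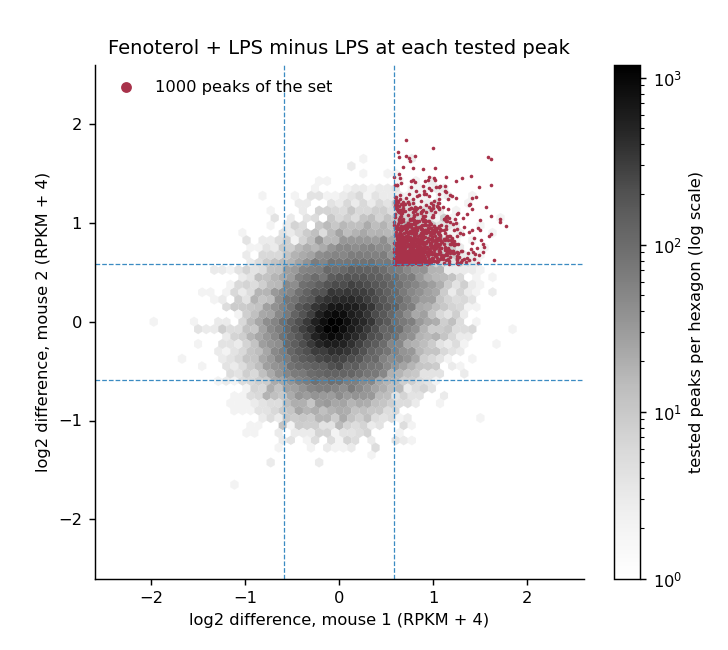
Log2 difference between fenoterol + LPS and LPS at each tested peak in mouse 1 (x axis) and mouse 2 (y axis), on the RPKM + 4 scale; grey hexagons count all tested peaks, red points are the members and dashed lines mark plus and minus 0.585. The upper right corner holds 1000 peaks, the lower left corner 269 and the other 2 corners 276 together.

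Within the set the gain, on the RPKM + 4 scale of the rule, was mostly close to the limit. The median log2 difference was 0.80 in mouse 1, with a range of 0.59 to 1.77, and 0.79 in mouse 2, with a range of 0.59 to 1.84. On the same RPKM + 4 scale a 2-fold gain in each of the mice was reached by 61 members. The added 4 makes a gain smaller than it is in plain RPKM. In plain RPKM the member median was 10.8 after LPS and 22.8 after both agents in mouse 1. In mouse 2 it was 10.2 and 21.7 RPKM. The mice differed by a median of 0.17 at a member, and mouse 1 had the larger gain at 534 of the 1000. Just inside the limit lay peak35240 on chromosome 19 at 5930101 to 5930611, at 27.3 and 33.4 RPKM after LPS and 43.5 and 52.1 RPKM after both agents (mouse 1 and mouse 2). Also just inside were peak39006 on chromosome 2 (6.88 and 12.4 RPKM against 13.2 and 20.6 RPKM) and peak28049 on chromosome 16 (12.7 and 13.7 RPKM against 28.0 and 22.6 RPKM). The nearest peaks outside were peak12230 on chromosome 11, with 7.83 and 7.58 RPKM under LPS and 16.1 and 13.4 RPKM under both, peak20435 on chromosome 13 (13.2 and 10.5 against 24.3 and 17.7 RPKM) and peak28744 on chromosome 16 (6.71 and 10.8 against 12.1 and 22.3 RPKM). Values on the 2 sides of the limit thus overlapped, and 718 further peaks passed the fold in both mice but not the limit on the mean.

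By medians over the set, accessibility was low in 3 of the 4 conditions and higher in the fourth. The rule sets the gap between LPS and fenoterol + LPS, and not all members had this order. A group of 100 members is sorted below by a mean LPS level under that of unstimulated cells. By its medians LPS was the 1 low condition, though not at each member. Those medians were 15.4 RPKM unstimulated, 14.2 after fenoterol, 6.73 after LPS and 16.0 after both. Median accessibility was 8.87 and 10.4 RPKM in unstimulated cells of mouse 1 and mouse 2, 9.29 and 11.5 RPKM with fenoterol, 10.8 and 10.2 RPKM after LPS, and 22.8 and 21.7 RPKM with fenoterol + LPS. The medians of the 6 libraries not given both agents thus lay between 8.87 and 11.5 RPKM. Over all tested peaks the 8 medians ran from 17.6 to 19.8 RPKM. Levels without LPS were not used in the fold rule, but the limit on the mean includes them. Their closeness to the LPS level is therefore not free of the rule, and nothing is read from it. Fenoterol + LPS values also count toward that limit, so a peak low in the other 6 libraries can pass it through them.

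At 921 of the 1000 members the mean of fenoterol + LPS was the highest of the 4 groups, and at 783 both of its libraries lay above each of the other 6. Over all tested peaks 9.79% had this order, but the rule itself sets each fenoterol + LPS library above the LPS library of its mouse, so nothing is read from the gap. A member could not have LPS as its highest group or fenoterol + LPS as its lowest. LPS was lowest at 347 members (34.7%), unstimulated at 395 (39.5%) and fenoterol at 258 (25.8%). Over all tested peaks these shares were 22.0%, 28.6% and 19.8%, with fenoterol + LPS lowest at 29.6%. At members that last share falls to the other groups by the rule, so nothing is read from the higher shares. In the 269 mirrored peaks the medians of mouse 2 were 14.7 RPKM unstimulated, 13.9 after fenoterol, 16.9 after LPS and 8.27 after both. In mouse 1 they were 11.2, 13.4, 15.8 and 7.69 RPKM in the same order. Both medians without LPS there lay below the LPS median and above that of the combination in each mouse. Fenoterol + LPS values are low at mirrored peaks, so the limit on the mean is met there more through the other 6 libraries. The levels without LPS of the 2 sets are thus not compared free of that limit. In the 1000 members the mice differed: the LPS median lay above both medians without LPS in mouse 1 and below both in mouse 2. At 135 of the 269 peaks both fenoterol + LPS libraries lay below the other 6.

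**Figure D2:**
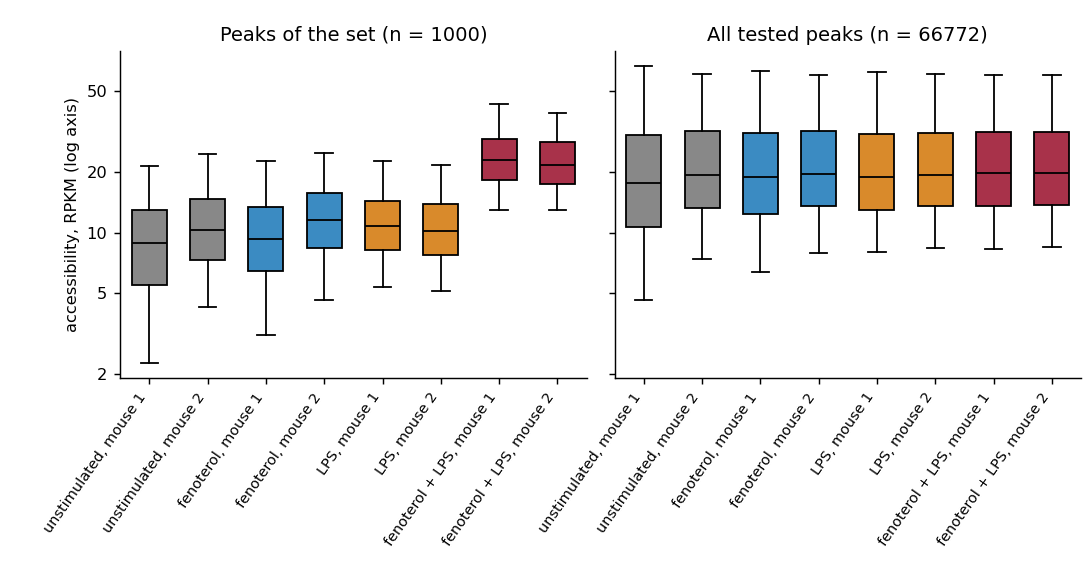
Accessibility in RPKM (log axis) of the 1000 members (left) and the 66772 tested peaks (right) in each of the 8 libraries; boxes span the quartiles with the median as a line, and whiskers the 5th to 95th percentile. Member medians are 21.7 and 22.8 RPKM in the fenoterol + LPS libraries and 8.87 to 11.5 RPKM in the other 6.

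The 12 members with the highest value of the smaller of the 2 mouse differences were 2.29- to 3.18-fold higher with both agents, on the RPKM + 4 scale. At all 12 both fenoterol + LPS libraries lay above the other 6. They rest on few reads, with 3 to 16 per LPS library and 13 to 54 per fenoterol + LPS library. The first, peak5611 on chromosome 10 at 12598407 to 12598700, had 9.58 and 8.45 RPKM unstimulated, 4.31 and 7.27 after fenoterol, 5.81 and 4.69 after LPS, and 26.1 and 23.2 after both (mouse 1 and mouse 2). Its reads were 6 (95% Poisson interval 2.20 to 13.1) and 5 (1.62 to 11.7) with LPS against 30 (20.2 to 42.8) and 24 (15.4 to 35.7) with both. These are the values by which the region was chosen.

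The second region, peak69633 on chromosome 9 at 50286033 to 50286308, had 5.10 and 2.70 RPKM unstimulated, 5.75 and 4.84 after fenoterol, 7.23 and 6.00 after LPS, and 29.7 and 27.8 after both. Its log2 difference was 1.59 in mouse 1 and 1.67 in mouse 2. The 520 bp wide peak57039 on chromosome 6 at 41504637 to 41505156 held the most reads of the 12 in the fenoterol + LPS library of mouse 2, with 16 reads in each LPS library against 53 and 54 after both. It had 9.46 and 10.5 RPKM unstimulated, 6.09 and 14.9 after fenoterol, 8.75 and 8.48 after LPS, and 26.1 and 29.4 after both. Its 6 libraries without the combination spread from 6.09 to 14.9 RPKM and did not reach the lower of the values with both.

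At peak1969 on chromosome 1 (92988241 to 92988475) the values were 11.99 and 7.40 RPKM unstimulated, 5.40 and 12.5 after fenoterol, 13.3 and 14.1 after LPS, and 41.4 and 37.5 after both. At peak5208 on the same chromosome (195231665 to 195231864) the mice differed more, with 25.6 RPKM in mouse 1 and 38.4 in mouse 2 after both agents. Its LPS values were 8.56 and 13.8 RPKM and its unstimulated values 14.1 and 19.9 RPKM, so LPS lay below unstimulated cells in each mouse. Libraries with a single read entered peak53640 on chromosome 5 (91303513 to 91303715): fenoterol of mouse 1 at 1.56 RPKM and unstimulated of mouse 2 at 1.23 RPKM. There LPS gave 5.62 and 9.53 RPKM and both agents 21.5 and 33.6 RPKM.

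**Figure D3:**
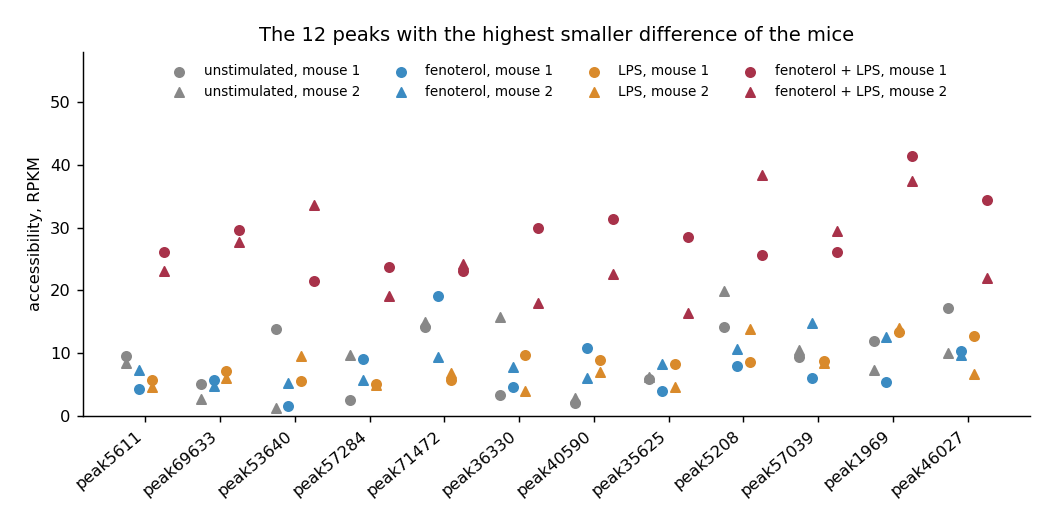
Accessibility in RPKM of the 12 members with the highest smaller difference of the 2 mice (x axis, peak names as in the deposited table), 1 point per library, circles for mouse 1 and triangles for mouse 2. The red fenoterol + LPS points lie above the other 6 points at all 12 peaks.

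The 3 members with the highest mean level did not share 1 pattern. At peak41814 on chromosome 2 (148356135 to 148356691) fenoterol alone and LPS alone stood near each other, at 35.8 and 35.9 RPKM and at 40.9 and 35.6 RPKM. Unstimulated cells had 25.2 and 27.2 RPKM and cells given both 77.1 and 66.1 RPKM, from 168 (143.6 to 195.4) and 130 (108.6 to 154.4) reads. At peak30820 on chromosome 17 (41085317 to 41086038) LPS was the low condition, with 29.9 and 25.5 RPKM against 49.6 and 50.8 unstimulated, 53.5 and 57.3 after fenoterol and 48.1 and 45.9 after both. The combination there lay slightly below the unstimulated level in each mouse. At peak62742 on chromosome 7 (105953296 to 105953833) both groups with fenoterol were above both groups without it: 49.4 and 56.6 RPKM with fenoterol and 53.7 and 53.2 after both, against 39.2 and 39.6 unstimulated and 33.8 and 29.2 after LPS. At both of these last regions the LPS level was below that of unstimulated cells in each mouse.

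Among the widest members, peak7018 on chromosome 10 (61762658 to 61763506, 849 bp) had 24.0 and 30.9 RPKM unstimulated, 24.97 and 24.8 after fenoterol, 31.8 and 30.8 after LPS and 51.8 and 48.7 after both. Its 95 reads in each LPS library stood against 172 and 146 after both. The 793 bp regions peak70776 on chromosome 9 and peak8428 on chromosome 10 had 21.9 and 19.8 RPKM and 13.6 and 9.03 RPKM after LPS, and 42.9 and 32.1 RPKM and 24.5 and 19.6 RPKM after both. At all 3 wide regions both fenoterol + LPS values were above the 6 others.

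Set against unstimulated cells, the members fell into patterns by the mean of the 2 mice, with the same limit of 0.585 on the log2 scale. At 520 members (52%) the combination lay above unstimulated cells by the limit or more while LPS alone stayed within it. Fenoterol alone is not part of this sorting, and it lay within or below the limit at 472 of the 520 and above unstimulated cells by the limit or more at 48. Their median levels were 9.23 RPKM unstimulated, 10.5 after fenoterol, 10.4 after LPS and 22.7 after both. At 225 of them each mouse alone gave the same pattern. An LPS gain that was enlarged after fenoterol was seen at 208 members (20.8%), with medians of 5.40 RPKM unstimulated, 7.004 after fenoterol, 12.9 after LPS and 26.3 after both, and at 105 of these LPS passed the limit in each mouse. At 100 members (10%) LPS lay below unstimulated cells by the limit or more, with medians of 15.4 RPKM unstimulated, 14.2 after fenoterol, 6.73 after LPS and 16.0 after both. At 49 of the 100 this held in each mouse. The remaining 172 members lay within the limits, with 12.5 RPKM unstimulated, 12.5 after fenoterol, 8.74 after LPS and 17.8 after both. Sorted the same way, 3754 of the 66772 tested peaks had a gain with the combination and not with LPS alone. An LPS gain was seen at 7981 tested peaks, an LPS loss at 3433 and neither pattern at 51604. The rule makes any LPS gain at a member an enlarged one, so the shares of members are not independent of it.

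These shares depended on the animal. By mouse 1 alone, whose unstimulated library is the shallow one, 316 members (31.6%) were enlarged LPS gains and 108 (10.8%) LPS losses. By mouse 2 alone the counts were 171 (17.1%) and 157 (15.7%). A gain with the combination and not with LPS alone was seen at 441 members in mouse 1 and 474 in mouse 2. The rule places a member in this pattern whenever LPS lies at or above unstimulated cells but within the limit. Nothing is therefore read from its being the most frequent. Counted in both mice, 105 members (10.5%) were higher with LPS than unstimulated by 1.5-fold, against 6.83% of tested peaks, and 49 (4.9%) were lower, against 2.14%. With fenoterol + LPS 564 members (56.4%) were above unstimulated cells by 1.5-fold in both mice, against 9.39% of tested peaks, and 1 was below, against 3.07%. These comparisons share LPS or fenoterol + LPS libraries with the rule and are given as descriptions.

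Single members show the patterns. Among enlarged LPS gains, peak2235 on chromosome 1 (107644972 to 107645311) went from 4.14 and 4.38 RPKM unstimulated to 10.1 and 11.4 after LPS and 27.9 and 33.4 after both, with 6.53 and 4.71 under fenoterol alone. The same order was seen at peak63602 on chromosome 7 (126136162 to 126136371), with 3.36 and 7.11 RPKM unstimulated, 6.05 and 3.82 after fenoterol, 12.2 and 9.21 after LPS and 31.7 and 32.5 after both. In each mouse LPS lay above unstimulated cells and the combination above LPS.

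Where LPS lay below unstimulated cells, peak71472 on chromosome 9 (105406286 to 105406485) had 14.1 and 14.9 RPKM unstimulated, 19.1 and 9.37 after fenoterol, 5.71 and 6.91 after LPS and 23.1 and 24.2 after both. At peak44692 on chromosome 3 (80964435 to 80964715) the values were 12.5 and 10.6 RPKM unstimulated, 10.2 and 9.51 after fenoterol, 3.04 and 6.87 after LPS and 12.8 and 19.2 after both. At both regions LPS was the lowest condition in each mouse. Among the members within the limits, peak61714 on chromosome 7 (71267129 to 71267638) had 17.9 and 17.99 RPKM unstimulated, 20.5 and 26.7 after fenoterol, 11.2 and 10.8 after LPS and 30.1 and 26.7 after both.

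Fenoterol alone for 15 min was called at 5 of the 66772 tested peaks and at no member. This comparison uses the 4 libraries without LPS, none of which entered the fold rule, and was tested with limma-trend on those 4 libraries with Benjamini-Hochberg adjustment over the 66772 tested peaks. Of these, 0.00599% rose (4 peaks) and 0.0015% fell (1 peak), and 0 of the 1000 members did either. With so few calls, 0 of 1000 is near the share over all tested peaks, and nothing about the members is read from it. At an unadjusted p under 0.05, 36 members were higher and 19 lower with fenoterol, which is 55 of 1000, against 2.74% of tested peaks higher and 2.42% lower. Voom on recovered reads called 0 members too, and 28 of the 66772 tested peaks. By voom 53 members and 3174 tested peaks had an unadjusted p under 0.05. With the mouse as a block, since libraries of the same number come from 1 animal, the fit called 117 tested peaks and 2 members. With 4 libraries the block leaves the spread of a single peak barely estimated, so these calls rest on the spread shared over peaks. Deviations of libraries of 1 mouse from the group means correlated at only 0.02 to 0.07 between groups. Calls also changed when a library was left out, as given below. Without the unstimulated library of mouse 2, only the shallow one of mouse 1 stood for unstimulated cells. The log2 difference was then 2.12 at peak6234 on chromosome 10, from 1 unstimulated read, and 1.65 at peak32600 on chromosome 18, from 3. Without the fenoterol library of mouse 2 the log2 difference at peak6933 on chromosome 10 was -1.40.

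The 2 members called with the block also had the smallest p among members higher with fenoterol in the fit without it. At peak5463 on chromosome 10 (7933685 to 7934163) unstimulated cells had 13.2 and 21.2 RPKM, fenoterol 33.1 and 34.6, LPS 15.4 and 13.8 and both 26.2 and 32.5. Its log2 difference between fenoterol and unstimulated was 0.81 (SE 0.21, limma adjusted p = 0.479, and 0.0397 with the block). At peak32600 on chromosome 18 (4803352 to 4803673) the values were 6.56 and 24.7 RPKM unstimulated, 30.5 and 31.5 after fenoterol, 14.2 and 8.56 after LPS and 26.2 and 15.0 after both (log2 difference 0.97, SE 0.29, limma adjusted p = 0.726, and 0.0246 with the block). The unstimulated library of mouse 1 held 3 reads at peak32600, and at both regions the p with the block rests on the spread shared over peaks. Without LPS, both regions were higher with fenoterol than without it in each mouse. Under LPS the same order is set by the rule at every member. At peak6234 on chromosome 10 the difference of 1.24 (SE 0.38, limma adjusted p = 0.747) rested on 1 read in the unstimulated library of mouse 1. The smallest p among members lower with fenoterol was at peak65389 on chromosome 8 (28373038 to 28373244), with 23.8 and 25.2 RPKM unstimulated, 13.8 and 9.05 after fenoterol, 41.4 and 29.4 after LPS and 69.4 and 52.2 after both (log2 difference -0.95, SE 0.27, limma adjusted p = 0.684). There fenoterol lay below unstimulated cells in each mouse without LPS, whereas the higher level with both agents than with LPS is set by the rule.

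Over the whole set, the median log2 difference between fenoterol and unstimulated cells was 0.09 in mouse 1 and 0.08 in mouse 2 on the deposited values, beside 0.05 and 0.005 over all tested peaks. After the size-factor scaling used for the fits it was 0.01 in mouse 1 and 0.07 in mouse 2. The median of the mouse means after scaling, 0.07, turned to -0.009 without the unstimulated library of mouse 1 and to -0.05 without the fenoterol library of mouse 2. Tested peaks were also split into 10 equal groups by mean level. In the lowest of them, which holds 271 members, the medians over all peaks were 0.21 and 0.05, and those over the members 0.11 and 0.07. The mean with fenoterol was above the unstimulated mean at 609 of the 1000 members and at 54.3% of tested peaks. A 1.5-fold gain in both mice was seen at 27 members (2.7%, against 1.04% of tested peaks), a loss at 11 (1.1%, against 0.373%) and opposite changes at 26, against 732 of the 66772. Each kind of change was thus more frequent at members, so no direction is read from these counts. Members held fewer reads, with a median of 4 against 10 over tested peaks in unstimulated cells of mouse 1. The counts were not compared with those of peaks of like level. Across the 1000 members, which share the 8 libraries and are not replicates, the fenoterol difference without LPS in mouse 1 correlated with that under LPS in mouse 2 at r = -0.05, and the reverse pairing gave r = 0.02. Over the 66772 tested peaks these were 0.01 and 0.05.

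**Figure D4:**
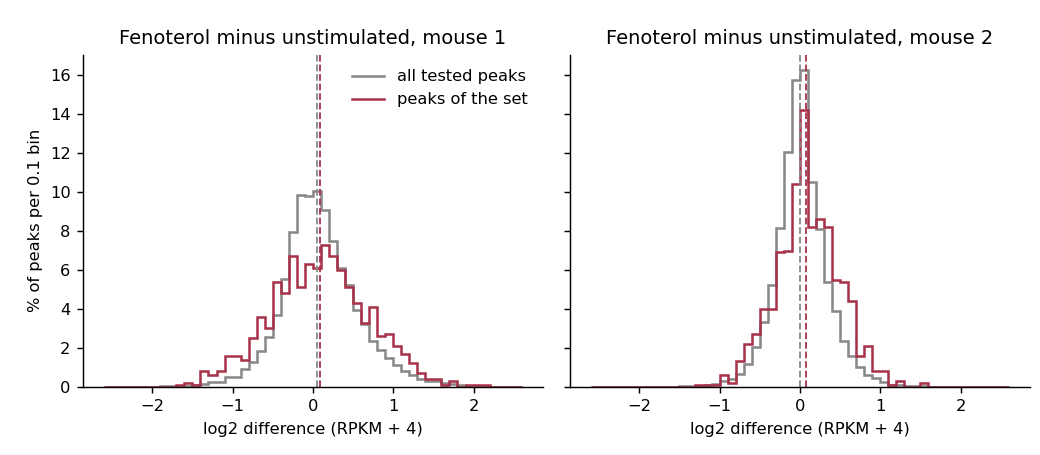
Distribution of the log2 difference between fenoterol and unstimulated cells (RPKM + 4) in mouse 1 (left) and mouse 2 (right), in % of peaks per 0.1 bin, for all tested peaks (grey) and the members (red), with dashed lines at the medians. The member medians are 0.09 and 0.08, and the member curve is wider than the grey one in both mice.

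Fits of the contrast that the rule used are given as background and say nothing of the members. By limma-trend over all 8 libraries, 0 of 66772 peaks passed for fenoterol + LPS against LPS, with 4444 at an unadjusted p under 0.05. Voom called 409 peaks higher (0.613% of those tested) and 30 lower, and a limma-trend fit on the 4 libraries with LPS 228 higher and 28 lower.

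Members were lower and narrower than tested peaks by their medians. Their mean over the 8 libraries had a median of 12.9 RPKM, with a highest value of 45.1, against 18.6 RPKM over tested peaks. Of the 10 equal groups by mean level, the lower 5 held 83.2% of the members. The share of peaks that were members went from 4.06% in the lowest group to 0.0599% in group 9 and to 0 of 6678 in the highest. The share of mirrored peaks went from 1.15% to 0.0150% over the same groups and was 0 in the highest. Member width had a median of 334 bp, with a highest value of 849, against 422 bp over tested peaks. Peaks at the minimum width of 200 bp made up 6.5% of members and 3.45% of tested peaks, whereas peaks of 1000 bp or more made up 4.82% of tested peaks and 0 members. The limit on the mean and the pseudocount act by level, so these shares are not independent of the rule.

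**Figure D5:**
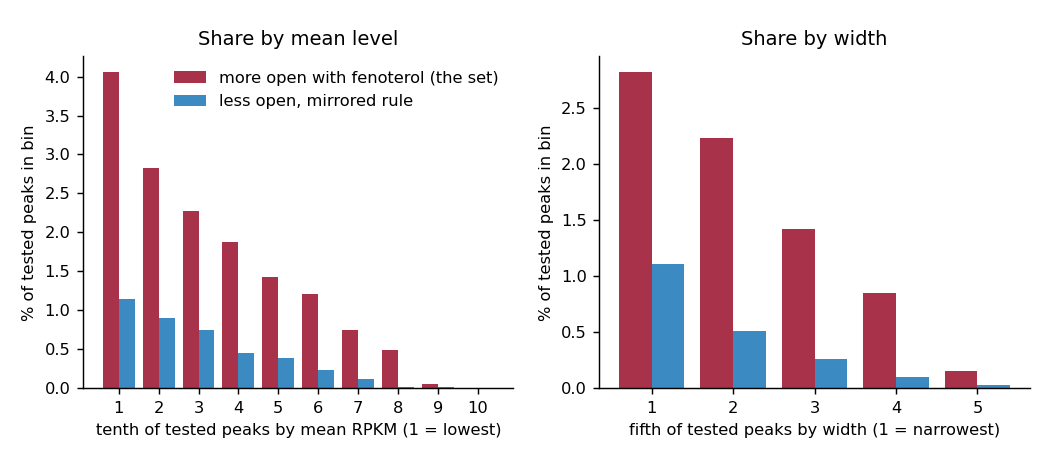
Share of tested peaks (y axis, %) that belong to the set (red) or meet the mirrored rule (blue), in 10 equal groups by mean RPKM (left) and 5 by width (right). The red share goes from 4.06% in the lowest to 0% in the highest group by level and from 2.82% in the narrowest to 0.157% in the widest group, and it is above the blue share in every bin that holds a member.

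Low peaks, members included, took a slightly larger share of reads in the libraries with both agents. Part of this follows from the rule. Members alone held 0.899% and 0.847% of reads with fenoterol + LPS (mouse 1 and mouse 2), against 0.439% and 0.421% with LPS. Peaks at or below the median mean level of all 74207 held 17.2% and 17.3% of reads in the fenoterol + LPS libraries of mouse 1 and mouse 2, 15.6% and 16.5% with LPS, 14.9% and 16.2% with fenoterol and 13.1% and 15.7% in unstimulated cells. In the lowest of the 10 groups by level the median of fenoterol + LPS against LPS on the log2 scale was 0.11 in mouse 1 and 0.03 in mouse 2, and over the highest -0.07 and -0.03. Rescaling changed the split between gains and losses. After cyclic loess, an alternative added after the data were seen that removes differences following the level, 752 peaks met the rule, of which 747 were members, and 423 met its mirror image. After quantile normalization 1003 peaks met the rule, 936 of them members, and 673 its mirror image. More peaks were up than down under both, but by a smaller ratio than on the deposited values.

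The members lay on 20 of the 21 chromosomes of the file. The share of tested peaks that were members ran from 0.899% on chromosome 11 (38 peaks) to 1.87% on chromosome 6 (71 peaks), with 1.05% on chromosome X and 0 of 32 peaks on chromosome Y. Chromosomes 2 and 1 held the most, with 86 and 83 members. A tested peak within 10 kb was found for 74.5% of members and 71.0% of tested peaks. The nearest tested peak was itself a member for 20 members (2%), against 1.52% over all tested peaks. Of the 726 nearest peaks within 10 kb that were not members, 39.4% were higher with fenoterol + LPS than LPS in both mice, against 29.0% for such neighbours of all tested peaks. Their median log2 difference was 0.06 in mouse 1 and 0.04 in mouse 2.

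Only 38 members lay within 10 kb of another member, in 18 groups, 2 of which had 3 members. The tightest group of 3 lay on chromosome 9 at 50284774 to 50287432 and held every tested peak of its 2659 bp. It comprises peak69632, peak69633, described above, and peak69634. The first had 2.27 and 4.01 RPKM unstimulated, 7.16 and 4.31 after fenoterol, 15.6 and 8.01 after LPS and 25.6 and 23.8 after both. The last had 5.80 and 5.11 RPKM unstimulated, 9.14 and 8.26 after fenoterol, 14.7 and 14.2 after LPS and 29.0 and 28.1 after both. All 3 peaks of the group were above their unstimulated level with LPS in each mouse, and reached 23.8 to 29.7 RPKM with the combination.

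The other group of 3, on chromosome 6 at 99157458 to 99168211, held 3 of the 4 tested peaks of its span. Its peak58472 had 19.97 and 15.5 RPKM unstimulated, 16.2 and 14.7 after fenoterol, 21.01 and 17.7 after LPS and 36.8 and 29.0 after both. The flanking peak58470 and peak58473 had 21.6 and 30.7 RPKM and 19.9 and 22.1 RPKM after both, against 11.6 and 17.7 RPKM and 10.7 and 11.9 RPKM after LPS. Gains at the 3 were alike, at 1.52- to 1.65-fold on the RPKM + 4 scale.

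Among the pairs, peak24599 and peak24600 on chromosome 15 (38488157 to 38488978) were 227 bp apart. They had 8.15 and 11.3 RPKM and 8.95 and 8.67 RPKM after LPS, and 19.9 and 20.9 RPKM and 16.1 and 16.2 RPKM after both. On chromosome 1 at 84271566 to 84273624, peak1708 had 7.81 and 16.0 RPKM unstimulated, 9.15 and 10.1 after fenoterol, 12.6 and 17.8 after LPS and 36.4 and 36.5 after both, whereas its neighbour peak1707 reached 17.3 and 19.2 RPKM after both. The neighbour had 12.3 and 19.4 RPKM after fenoterol, which is below its level with both agents in mouse 1 and about at that level in mouse 2. On chromosome 12 at 102110133 to 102112235, peak16479 and peak16480 had 22.5 and 20.6 RPKM and 21.3 and 24.6 RPKM after both, and 3.59 to 13.9 RPKM in all other libraries. On chromosome 2 at 19061983 to 19064525, peak37806 had 6.12 and 8.63 RPKM unstimulated, 10.1 and 5.42 after fenoterol, 19.0 and 16.0 after LPS and 32.6 and 39.5 after both. Its neighbour peak37805, with 12.04 and 14.4 RPKM under LPS, had 22.9 and 26.8 RPKM under both. At both peaks of this pair the fenoterol + LPS libraries lay above the other 6.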

How the data were processed

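The authors deposited RPKM for each peak in each library. The submitters' processing notes name cutadapt, Bowtie2, MACS2 and HOMER and the build mm9. Duplicate removal, a Tn5 shift and whether peaks were called on pooled libraries were not stated in these sources. RPKM times peak length gave whole multiples of 1 read at 100% of values (within 0.01 read), relative to reads in peaks, so reads were recovered.

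Members were found on deposited values, and printed levels are as deposited. For fits, values were divided by median-ratio size factors (0.940 to 1.04), 4 was added and log2 taken. Fenoterol was compared with unstimulated cells by limma-trend (limma 3.58.1, R 4.3.3, two-sided) on the 4 libraries without LPS, 2 mice per group, threshold 0.05 after Benjamini-Hochberg adjustment, and fenoterol + LPS with LPS on all 8. Voom (limma) used the recovered reads. The fits were tested on simulated data.

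The labels give the mouse of each library, which pairs them. Deviations of libraries of 1 mouse from the group means correlated at 0.02 to 0.07 between groups.

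Named are the 12 members with the highest smaller difference, those next to the limit, those with the smallest p for fenoterol alone in each direction, those highest by mean level and widest, groups of members within 10 kb and examples of each pattern. Members, rule and lists were chosen with earlier results of these data known. Alternatives were other scalings, pseudocounts, filters and folds, thinning to equal depth, a fit without mean trend, a block for the mouse, voom and leaving out each library. Cyclic loess and the minimum of 20 reads were added after seeing the data.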

Additional observations from a re-analysis of the deposited data

How the results depend on the processing

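The number of peaks meeting the rule, 1000, was 1672 with a pseudocount of 0.8 and 39 with 20, 1718 without the filter on the mean and 61 at 2-fold. Size-factor scaling gave 972 and thinning to equal depth 1044, 882 of them members. Quantile normalization gave 1003 higher and 673 lower, cyclic loess 752 and 423, against 1000 and 269. The rule needs all 4 libraries with LPS, so none could be left out of it.

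For fenoterol alone, the 5 tested peaks called became 3 with a pseudocount of 0.8, 3 on deposited values, 22 after quantile normalization, 28 by voom, 0 without a mean trend and 117 with the replicate block, where the members called were 2 in place of 0. The block changed no call for fenoterol + LPS against LPS, with 0 peaks. Leaving out 1 library, with the lone library assumed to vary like the others, gave 0 to 187 tested peaks and 0 to 5 members, both highest without the unstimulated library of mouse 2. Tested peaks were 0 without that of mouse 1, and 2 and 8 without the fenoterol libraries of mouse 1 and mouse 2.

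The member median after scaling, 0.0659, was 0.00853 after quantile normalization and 0.0200 after cyclic loess. It was -0.00888 without the unstimulated library of mouse 1 and -0.0537 without the fenoterol library of mouse 2, and reached 0.139 when the one of mouse 1 was left out, so its sign rested on single libraries. The cause was not tested.

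For fenoterol + LPS against LPS, the 0 peaks of limma-trend became 439 by voom, 256 on the 4 libraries with LPS, 3 with a pseudocount of 20 and 2 after quantile normalization. Leaving out 1 library gave 0 to 23, with 23 and 20 without the unstimulated libraries of mouse 1 and mouse 2 and 0 without each of the other 6. Depth limits single members: 18.1% held at least 20 reads in each library with LPS.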
